A study of Mus musculus with 12 samples.

Results

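The Mdmx transgene was examined as 1 factor over the whole experiment, so that all 12 of the 12 libraries entered: 6 that carry it and 6 that do not. Those with it are the 3 Mdmx-Tg libraries and the 3 Mdmx-Tg/Pu.1-URE-/- libraries, called the double mutant here. Those without it are the 3 Wild-type and the 3 Pu.1-URE-/- libraries. The libraries were chosen by genotype alone, and the genes described first are those that differed the same way in both backgrounds, that is, with the Spi1 upstream element present (Mdmx-Tg against Wild-type) and with it deleted (double mutant against Pu.1-URE-/-). The 2 backgrounds share no library.

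RNA came from mouse bone marrow cells sorted as Flk2-negative within the lineage-negative, Sca-1-positive, Kit-positive compartment, which holds blood stem cells and early progenitors. Mdmx-Tg mice carry a transgene for Mdmx, the protein encoded by Mdm4. Pu.1-URE-/- mice lack on both alleles the URE, an enhancer upstream of Spi1, which encodes the transcription factor PU.1. Double-mutant mice combine the transgene with this deletion, and Wild-type mice have neither. The labels give each library a mouse number of its own and give neither strain, age, sex, transgene promoter nor copy number.

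MDMX is a relative of the ubiquitin ligase MDM2. It binds the tumour suppressor p53 and holds back its action as a transcription factor, and it can pair with MDM2 to promote p53 degradation. It also binds casein kinase 1 alpha (encoded by Csnk1a1), a kinase of the complex that marks beta-catenin for destruction, which links it to Wnt signalling. In blood stem cells p53 is known for restraining cell cycle entry and for removing damaged cells.

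The libraries held 47271286 to 55067735 estimated reads each and 12824 to 14117 genes with at least 10 reads. Kit stood at 165 to 328 CPM (read counts scaled to a common library size of 1000000) and Ly6a, which encodes Sca-1, at 15.005 to 97.2 CPM, while Cd3e and Cd4 did not exceed 1.11 CPM. Flt3, the gene of the Flk2 receptor used to sort, was present at 5.83 to 53.7 CPM. Ly6g had no read in Mdmx-Tg and Wild-type and stood at 3.19 to 45.8 CPM in the double mutant and Pu.1-URE-/-. Libraries of 1 genotype correlated at 0.848 to 0.912 on the log2 scale, and the biological coefficient of variation was 0.818. In Wild-type 1 the immunoglobulin share of reads was 31.2%, and Y-linked genes were high in Wild-type 2 and in double mutants 1 and 3 only. Genes with at least 10 reads were fewer with the transgene, at 13209 ± 335, than without it, at 13634 ± 263 (SD, n = 6 each; exact stratified permutation test, two-sided p = 0.05, adjusted p = 0.179 over 13 such values). The part of this difference in the results below was not tested except through the fit with it as a covariate.

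No gene passed the additive fit, in which transgene and element each have 1 term (0 of the genes tested, 0%; edgeR quasi-likelihood test with Benjamini-Hochberg adjustment, lowest adjusted p = 0.10). At an unadjusted p under 0.05 there were 2270 genes, of which 1184 were higher (7.89%) and 1086 lower (7.23%) with the transgene. DESeq2 on the same design called 418 genes higher (3.85%) and 397 lower (3.65%) among 10868 with an adjusted p, 815 in all (7.50%), and limma-voom called 1. Within the backgrounds edgeR called 0 genes (0%) for Mdmx-Tg against Wild-type and 0 (0%) for the double mutant against Pu.1-URE-/-, with 1576 and 1601 genes at an unadjusted p under 0.05 and 330 and 329 called by DESeq2. One library weighed on the count: without Mdmx-Tg 3 edgeR called 211 genes, 108 higher and 103 lower. Once detected genes entered the fit as a covariate, the 24 genes named below had an edgeR adjusted p of 0.737, and without 3 libraries together one of 0.497. These 3, chosen after the data were seen, were Mdmx-Tg 2 and double mutant 3, with the fewest detected genes, and Wild-type 1, with the most immunoglobulin reads. All values below are therefore given as measurements that did not pass, unless a test is named.

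The agreement of the backgrounds was read from the libraries themselves. In 473 genes (3.15%) the 3 libraries with the transgene lay apart from the 3 without it in both backgrounds and on the same side. Of these, 244 were higher (1.63%) and 229 were lower (1.53%), and 457 were protein-coding. The opposite pattern, higher in one background and lower in the other without overlap, was found in 70 genes (0.466%). In Mdmx-Tg against Wild-type 13.7% of genes were apart, and in the double mutant against Pu.1-URE-/- 18.8% were. Genes apart on the same side had a median log2 change of 0.81 where higher (quartiles 0.57 to 1.17) and of -0.82 where lower (quartiles -1.16 to -0.64). Among them 341 were also called by DESeq2. All 6 libraries with the transgene lay above all 6 others in 94 genes (0.626%) and below them in 76 (0.506%).

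Across all 15012 genes the resemblance of the backgrounds was slight. The 2 log2 changes had the same sign in 8998 genes (59.94%), with Pearson's r of 0.093 and Spearman's rho of 0.227 across genes, which are not independent replicates. Without those 3 libraries, 391 genes were apart higher, 533 lower and 471 in opposite ways. Fewer libraries separate more easily by construction, and with any of 11 single libraries left out the opposite count also exceeded 1.5 times its value over 12 libraries.

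**Figure D1:**
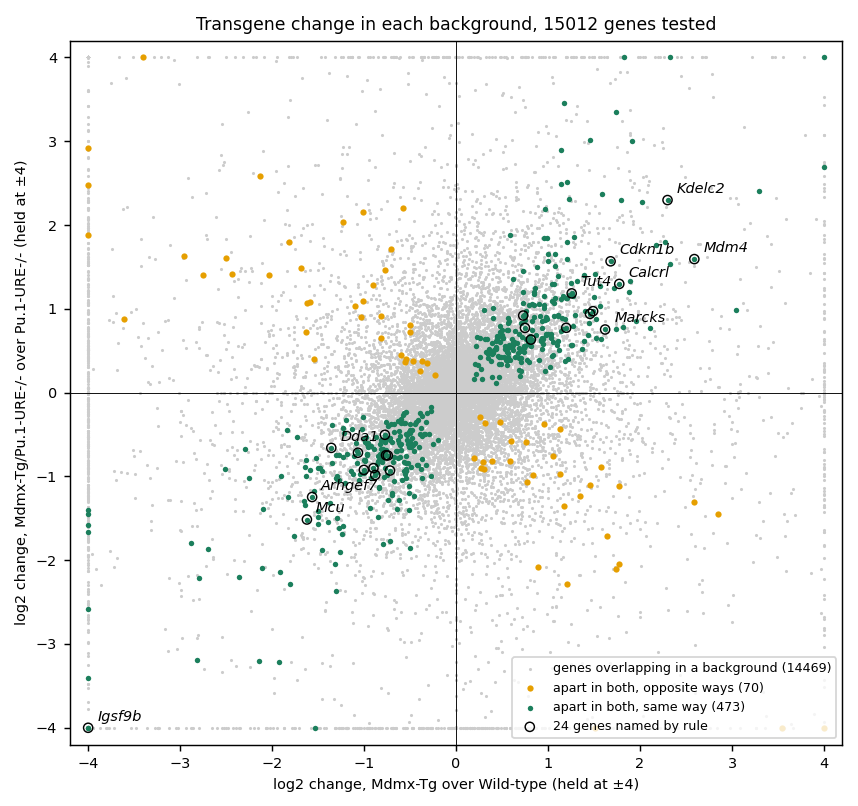
Log2 change of each of 15012 genes with the transgene, in Mdmx-Tg over Wild-type (horizontal axis) and in the double mutant over Pu.1-URE-/- (vertical axis), both held at 4 log2 units. The 473 genes whose libraries were apart on the same side (green) lie in 2 opposite quadrants, the 70 apart in opposite ways (orange) lie in the others, and circles mark the 24 genes described by name.

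Mdm4 itself was the check of the transgene. Mdm4 (chromosome 1, 132959484 to 133030561, minus strand, GRCm38) stood at 535, 414 and 163 CPM in Mdmx-Tg, against 77.9, 70.9 and 35.8 CPM in Wild-type. It stood at 353, 163 and 209.8 CPM in the double mutant, against 93.9, 56.2 and 90.3 CPM in Pu.1-URE-/-. All 6 libraries with the transgene were above all 6 without it, and the lowest of each genotype, Mdmx-Tg 3 and double mutant 2, both stood at 163 CPM. The log2 change was 2.09 ± 0.35 in the additive fit (SE; edgeR adjusted p = 0.115, DESeq2 adjusted p = 1.43e-06), with 2.59 in Mdmx-Tg over Wild-type and 1.59 in the double mutant over Pu.1-URE-/-. These 2 changes were not shown to differ (interaction log2 -0.996 ± 0.64, edgeR adjusted p = 0.925).

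The partners of MDMX differed less. Mdm2 stood at 50.3, 50.1 and 33.3 CPM in Mdmx-Tg and at 59.9, 59.2 and 62.4 CPM in the double mutant, against 40.4, 42.0 and 34.5 CPM in Wild-type and 77.3, 37.0 and 50.9 CPM in Pu.1-URE-/- (log2 change 0.16 ± 0.18, edgeR adjusted p = 0.744). Trp53, the p53 gene, had a log2 change of -0.26 ± 0.19 (edgeR adjusted p = 0.588) and Csnk1a1 one of -0.02 ± 0.12 (edgeR adjusted p = 0.971). Spi1 was low and variable, at 0.0198 to 21.6 CPM with the transgene and 5.34 to 38.0 CPM without it (log2 change -1.67 ± 0.98, edgeR adjusted p = 0.472). The groups overlapped in both backgrounds in Mdm2, Trp53 and Csnk1a1. Spi1 overlapped between Mdmx-Tg and Wild-type, while the double mutant, at 3.48, 1.84 and 0.0198 CPM, lay below Pu.1-URE-/-, which stood at 8.73, 8.73 and 23.9 CPM. The log2 change there was -2.95 ± 1.28 (adjusted p = 0.453, edgeR).

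Of 18 MDM and p53 circuit genes tested, 3 were higher at an unadjusted p under 0.05, Mdm4 itself among them, and 2 were lower, against 7.89% and 7.23% of all genes. Apart in both backgrounds were 2 higher, Mdm4 again included, and 2 lower, against 1.63% and 1.53%. Besides Mdm4, the checkpoint kinase gene Chek1 was apart higher in both backgrounds, at 45.6, 61.3 and 60.02 CPM in Mdmx-Tg, against 26.5, 41.2 and 41.0 CPM in Wild-type, and 40.1, 61.3 and 44.5 CPM in the double mutant, against 39.5, 28.9 and 30.5 CPM in Pu.1-URE-/- (log2 change 0.59 ± 0.17, edgeR adjusted p = 0.147). Libraries did not overlap in either background, but double mutant 1 and Pu.1-URE-/- 1 were nearly level. Apart lower were Hipk2, a kinase that phosphorylates p53 (-0.71 ± 0.21), and Ppm1d, a phosphatase that acts against p53 and is itself induced by it (-0.64 ± 0.27). Chek2, a checkpoint kinase gene, was apart in opposite ways, with log2 changes of -0.55 in Mdmx-Tg over Wild-type and 0.36 in the double mutant over Pu.1-URE-/- (interaction 0.91 ± 0.26, edgeR adjusted p = 0.767). Over all genes the interaction gave 0 calls by edgeR, 871 genes at an unadjusted p under 0.05 and 194 calls by DESeq2. Chek1, Hipk2, Ppm1d and Chek2 are named because they were apart, after their values were seen, as are other list members described below as apart in both backgrounds.

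Genes that p53 is known to induce lay on both sides of 0. Of 47 p53 targets tested, 21 had a log2 change above 0 and 26 below (median -0.13, against 0.00 over all genes), 2 were higher and 7 lower at an unadjusted p under 0.05 (7.89% and 7.23% over all genes), and none was apart in both backgrounds. Cdkn1a, the gene of the cell cycle inhibitor p21, stood at 12.95, 3.12 and 5.04 CPM in Mdmx-Tg, against 10.9, 16.5 and 13.1 CPM in Wild-type. It stood at 10.5, 16.1 and 4.90 CPM in the double mutant, against 25.8, 59.7 and 18.1 CPM in Pu.1-URE-/-. The groups overlapped with the element and did not without it (log2 change -1.33 ± 0.44, edgeR adjusted p = 0.190, DESeq2 adjusted p = 0.0399). The other lower members at an unadjusted p under 0.05 included Steap3 (-1.17 ± 0.36), the mitotic regulator Gtse1 (-1.14 ± 0.36), the pro-apoptotic Bax (-0.42 ± 0.15) and the exonuclease gene Aen (-0.34 ± 0.13), and the epoxide hydrolase gene Ephx1 was higher (1.47 ± 0.53).

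The 12 genes with the smallest p among those apart higher in both backgrounds were Cdkn1b, Kdelc2, Tut4, Marcks, Mdm4, Phf14, Ubl7, Armcx1, Abcg1, Eif2ak2, Calcrl and Paip1. Being apart and having a small edgeR p were conditions of this choice, so neither carries weight as a result. Their log2 changes ran between 0.72 and 2.30, with edgeR adjusted p of 0.10 to 0.115. DESeq2 called all 12, but on the same counts and design, so its calls are not independent of the choice.

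Cdkn1b encodes p27, a cyclin-dependent kinase inhibitor known for keeping blood stem and progenitor cells out of the cycle. It had the smallest p of all genes (chromosome 6, 134920401 to 134925513, plus strand, GRCm38). Cdkn1b stood at 129, 119.7 and 79.8 CPM in Mdmx-Tg, against 31.1, 31.6 and 39.8 CPM in Wild-type, and at 109, 52.6 and 144 CPM in the double mutant, against 37.3, 37.8 and 27.9 CPM in Pu.1-URE-/-. The lowest library with the transgene, double mutant 2, was still above the highest without it. The log2 change was 1.62 ± 0.23, and 1.68 and 1.57 in the 2 backgrounds (edgeR adjusted p = 0.10, DESeq2 adjusted p = 9.97e-08). Without double mutant 2 it was the one gene called, with an edgeR adjusted p of 0.00841. Its neighbour Crebl2 (134830154 to 134858931), which encodes a leucine zipper protein and was chosen after its values were seen, was also apart higher in both backgrounds (1.32 ± 0.26), while the other 5 genes tested within 200 kb were not. The stretch of 250 bases before the Cdkn1b start (RefSeq, GRCm38.p6, chr6:134920151-134920400, plus strand) is shown for the 2 CCAAT boxes in it, in capitals.
Cdkn1b promoter: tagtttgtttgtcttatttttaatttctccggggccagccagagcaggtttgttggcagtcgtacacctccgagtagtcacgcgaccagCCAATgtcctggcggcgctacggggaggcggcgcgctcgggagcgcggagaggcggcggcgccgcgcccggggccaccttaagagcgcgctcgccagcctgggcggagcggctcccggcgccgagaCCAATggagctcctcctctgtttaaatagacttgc

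Kdelc2, a glucosyltransferase gene of the endoplasmic reticulum, had the largest log2 change of the 12, 2.30 ± 0.33, and the same value to 2 decimals in each background. It stood at 60.2, 72.1 and 24.2 CPM in Mdmx-Tg, against 7.29, 17.3 and 7.22 CPM in Wild-type, and at 52.9, 37.4 and 64.6 CPM in the double mutant, against 10.8, 13.5 and 7.19 CPM in Pu.1-URE-/-. Tut4, which adds uridines to RNA ends, and the chromatin reader gene Phf14 had log2 changes of 1.22 ± 0.19 and 0.82 ± 0.14. Calcrl, the receptor for calcitonin gene-related peptide and adrenomedullin, stood at 105, 172 and 41.3 CPM in Mdmx-Tg, against 36.5, 26.8 and 29.8 CPM in Wild-type, and at 151, 117 and 185 CPM in the double mutant, against 46.1, 67.1 and 70.9 CPM in Pu.1-URE-/-. Groups did not overlap within a background, and Mdmx-Tg 3 was the library with the transgene closest to Wild-type. In Abcg1, a cholesterol exporter, the log2 change was 1.23 ± 0.23, in the translation factor partner Paip1 it was 1.198 ± 0.23, and in Eif2ak2, the kinase PKR that senses double-stranded RNA, it was 0.72 ± 0.14. Armcx1 (0.99 ± 0.18) and the ubiquitin-like Ubl7 (0.76 ± 0.13) made up the set.

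Marcks, a protein kinase C substrate at the plasma membrane, differed by background in level. It stood at 20.5, 24.998 and 20.6 CPM in Mdmx-Tg, against 7.66, 8.20 and 5.63 CPM in Wild-type, and at 90.0, 69.98 and 81.9 CPM in the double mutant, against 47.5, 48.7 and 47.2 CPM in Pu.1-URE-/-. Its log2 change was 1.62 with the element and 0.75 without it, and the difference of the 2 had an unadjusted edgeR p of 0.0113 and an adjusted p of 0.826.

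**Figure D2:**
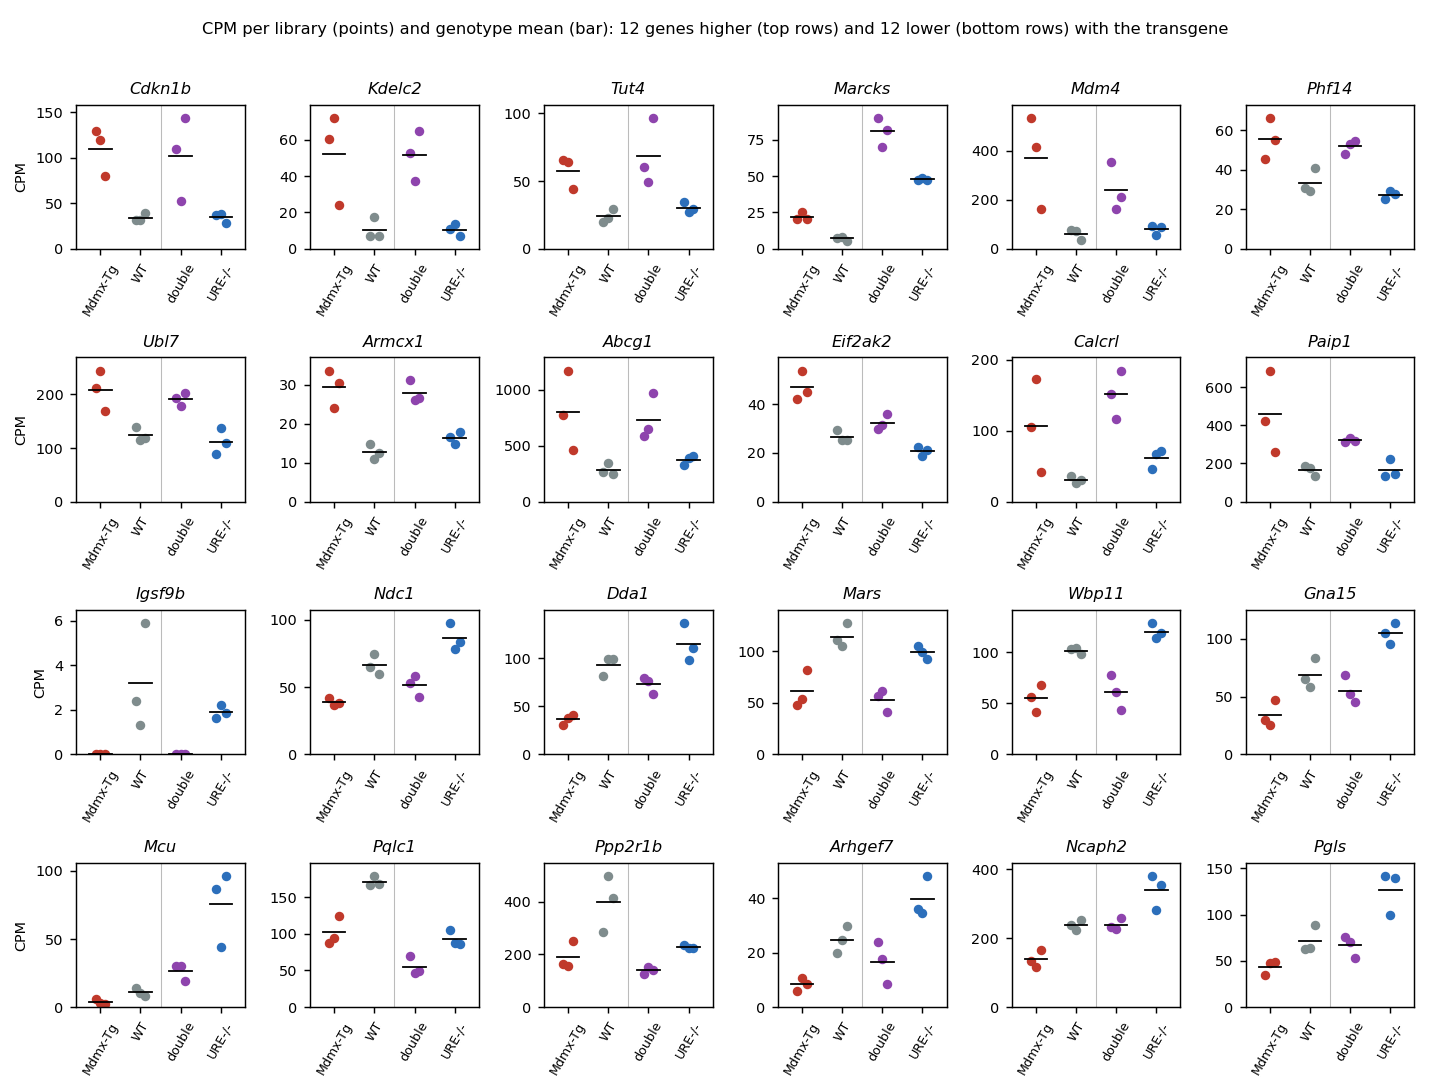
CPM per library (points) and genotype mean (bars) of the 24 genes named by rule, with Mdmx-Tg left of Wild-type (WT) and the double mutant left of Pu.1-URE-/- (URE-/-) in each panel. The upper 12 genes lie above and the lower 12 below the libraries without the transgene on both sides of each panel, which was a condition of their choice, and Marcks and Mcu are at higher levels in the background without the element.

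Igsf9b, which encodes an adhesion molecule of the immunoglobulin superfamily known from synapses, came first among the 12 lower genes by p. Igsf9b (chromosome 9, 27299204 to 27357546, plus strand) had 0 estimated reads in each of the 6 libraries with the transgene, against 107, 73 and 385 in Wild-type and 80, 126 and 95 in Pu.1-URE-/-. It was at least 281-fold lower with the transgene taking 3 reads over the 6 libraries as the floor, which covers counting error only. All of the 866 reads were assigned to a single transcript of 16144 bases. The level was low, at most 5.89 CPM, and DESeq2 gave the gene no adjusted p (edgeR adjusted p = 0.115, limma-voom adjusted p = 0.00422). Igsf9b was the 1 gene called by limma-voom. It passed the low-count filter only through the libraries without the transgene, so its p-values are given with that limit and not as support.

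The other 11 were Ndc1, Dda1, Mars, Wbp11, Gna15, Mcu, Pqlc1, Ppp2r1b, Arhgef7, Ncaph2 and Pgls, with log2 changes between -1.57 and -0.64. DESeq2 called all 11, which again is not independent of a choice by small edgeR p in the same counts. Mcu, the pore of the mitochondrial calcium uniporter, had the largest change of these (-1.57 ± 0.29). It stood at 5.88, 2.81 and 2.04 CPM in Mdmx-Tg, against 14.2, 10.5 and 8.37 CPM in Wild-type, and at 30.1, 30.3 and 19.2 CPM in the double mutant, against 44.3 to 96.1 CPM in Pu.1-URE-/-. The double mutant thus had more Mcu RNA than Wild-type. The transgene was on the lower side within each background and over all libraries (mean 15.1 CPM with it, 43.4 CPM without it).

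Dda1, a subunit of DDB1 ubiquitin ligases, stood at 30.5, 37.7 and 41.2 CPM in Mdmx-Tg, against 81.3, 99.4 and 99.4 CPM in Wild-type, and at 78.9, 76.2 and 62.9 CPM in the double mutant, against 136, 98.0 and 110.1 CPM in Pu.1-URE-/-. All 6 libraries with the transgene were below all 6 others (log2 change -1.01 ± 0.17). The change was -1.36 with the element and -0.66 without it (edgeR interaction adjusted p = 0.843). Pgls, an enzyme of the pentose phosphate pathway, lies within 200 kb of Dda1 on chromosome 8 (71592176 to 71601092, against 71469199 to 71476098 for Dda1) and was lower too (-0.82 ± 0.16). No other gene tested within that distance of Dda1 was apart in both backgrounds. Of them, Mvb12a (-0.69 ± 0.20), Colgalt1 (-0.50 ± 0.17), Ankle1 (-0.94 ± 0.39) and Abhd8 (-0.62 ± 0.27) were lower at an unadjusted edgeR p under 0.05. Only Unc13a was higher at that threshold (1.32 ± 0.51). Near Pgls the hormone gene Insl3 was apart higher in both (1.102 ± 0.39). These neighbours were chosen after their values were seen.

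Ndc1, a membrane-anchored nucleoporin, stood at 37.0 to 42.2 CPM in Mdmx-Tg and 42.6 to 58.2 CPM in the double mutant, against 59.4 to 74.8 CPM in Wild-type and 78.0 to 97.2 CPM in Pu.1-URE-/-, with log2 changes of -0.76 and -0.75 in the 2 backgrounds. Mars, the methionyl-tRNA synthetase gene, had -0.90 in each background, and the splicing-associated Wbp11 had -0.88 and -0.98. The blood cell G protein subunit Gna15 (-0.96 ± 0.18), the Rac and Cdc42 exchange factor Arhgef7 (-1.41 ± 0.27), the phosphatase 2A scaffold Ppp2r1b (-0.89 ± 0.17), the condensin II subunit Ncaph2 (-0.64 ± 0.13) and the membrane protein gene Pqlc1 (-0.75 ± 0.14) completed the set.

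Stem cell genes leaned towards higher values with the transgene. Of 49 haematopoietic stem cell genes tested, 38 had a log2 change above 0, against 7506 of 15012 over all genes, and 13 were higher and 1 lower at an unadjusted p under 0.05, against 7.89% and 7.23% of all genes. Their median log2 change was 0.34, with 0.51 in Mdmx-Tg over Wild-type and 0.18 in the double mutant over Pu.1-URE-/-. Apart higher in both backgrounds were Cdkn1b and Hoxa7, a homeobox gene of early blood cells (1.00 ± 0.25). Cd34, a surface marker of progenitors, stood at 310.1, 285 and 189 CPM in Mdmx-Tg, against 129.8, 138 and 219.8 CPM in Wild-type, and at 274, 155 and 342 CPM in the double mutant, against 66.9, 128 and 97.4 CPM in Pu.1-URE-/-. Wild-type 3 lay above Mdmx-Tg 3, and in the other background the groups did not overlap (1.04 ± 0.26, edgeR adjusted p = 0.126). The transcription factor genes Meis1 (1.00 ± 0.36) and Hlf (0.69 ± 0.23) were higher as well. Mecom, a regulator of stem cell maintenance, had log2 changes of 1.47 in Mdmx-Tg over Wild-type and 0.05 in the double mutant over Pu.1-URE-/-.

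The 43 leukaemia-associated self-renewal genes, some of which are on the stem cell list as well, had a median of 0.26. At an unadjusted p under 0.05, 13 were higher and 1 lower, against 7.89% and 7.23% of all genes. Psip1, a chromatin tether of MLL complexes, was apart higher in both backgrounds, at 81.0, 135 and 117 CPM in Mdmx-Tg, against 70.7, 77.0 and 76.0 CPM in Wild-type, and 66.2, 117 and 99.7 CPM in the double mutant, against 49.8, 63.2 and 42.7 CPM in Pu.1-URE-/-. The dendritic cell factor gene Zbtb46 was apart lower (-2.02 ± 0.83). Of 17 lymphoid priming genes, 11 were above 0 (median 0.50), and Cd27, a receptor of early lymphoid-primed cells, was apart higher, at 112, 134 and 94.3 CPM in Mdmx-Tg, against 73.2, 45.8 and 55.9 CPM in Wild-type, and 97.3, 71.3 and 88.0 CPM in the double mutant, against 18.3, 51.3 and 45.4 CPM in Pu.1-URE-/- (1.06 ± 0.23). The groups did not overlap in either background.

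Erythroid genes were below 0 in 25 of 25 tested members, the most one-sided of the lists. Their median log2 change was -1.07, and -1.06 and -1.03 in the 2 backgrounds. At an unadjusted p under 0.05, 2 members were lower, against 7.23% of all genes, among them Ermap (-1.62 ± 0.72). None was called or apart in both backgrounds. Summed over the list they took 1655 to 5824 CPM with the transgene and 2504 to 7866 CPM without it (exact stratified permutation test, two-sided p = 0.055, adjusted p = 0.179). In sorted bulk RNA fewer cells of a type and less RNA per cell cannot be told apart, and the part of erythroid RNA in the values of stem cell genes was not tested. Without double mutant 2 the erythroid median was -1.99, and without Mdmx-Tg 2, double mutant 3 and Wild-type 1 it was -0.70.

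Cell cycle genes leaned lower. Of 35 G2/M genes tested, 33 had a log2 change below 0 and 29 were below 0 in both backgrounds, against 4385 of 15012 over all genes. At an unadjusted p under 0.05, 0 were higher and 11 lower, against 7.89% and 7.23% of all genes. The median was -0.33, and -0.26 and -0.40 in the 2 backgrounds. Ube2c, the conjugating enzyme of the anaphase-promoting complex, stood at 75.1, 46.4 and 133 CPM in Mdmx-Tg, against 103, 145 and 156 CPM in Wild-type, and at 168, 111 and 103 CPM in the double mutant, against 277, 178 and 247 CPM in Pu.1-URE-/-. Mdmx-Tg 3 lay among the Wild-type libraries, and the double mutant lay below Pu.1-URE-/- throughout (-0.77 ± 0.25, edgeR adjusted p = 0.168). The mitotic kinases Aurkb and Plk1 had log2 changes of -0.75 ± 0.23 and -1.08 ± 0.38, the kinesin Kif2c one of -1.07 ± 0.37, and Cdc20, an activator of the anaphase-promoting complex, one of -0.43 ± 0.17. None was apart in both backgrounds.

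Among 35 S phase genes, 1 was higher and 10 lower at an unadjusted p under 0.05 (median -0.19), against 7.89% and 7.23% of all genes. Cyclin E1 (Ccne1), which drives entry into S phase, was apart lower in both backgrounds, at 42.6, 26.7 and 93.3 CPM in Mdmx-Tg, against 99.6, 135 and 118 CPM in Wild-type, and 17.7, 50.3 and 46.98 CPM in the double mutant, against 95.8, 55.2 and 74.6 CPM in Pu.1-URE-/-. Mdmx-Tg 3 and double mutant 2 came closest to the libraries without the transgene (-1.05 ± 0.32, edgeR adjusted p = 0.158). The ribonucleotide reductase genes Rrm2 (-0.71 ± 0.21) and Rrm1 (-0.43 ± 0.15) and the replicative helicase subunits Mcm2 (-0.44 ± 0.15) and Mcm7 (-0.51 ± 0.22) were lower without being apart in both. The transcription factor E2f1 was the higher member (0.67 ± 0.29).

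Promoters of G2/M genes are known for 2 short elements, the CHR (TTTGAA) and the CCAAT box (CCAAT), through which a repressor complex acts when p53 induces p21. In the 250 bases before the RefSeq start, searched on both strands, the CHR stood in 40.6% of the 32 windows of 29 G2/M genes, against 16% of all 32851 windows of 27025 genes. The CCAAT box stood in 78.1% of the G2/M windows, against 33.8% of all. The p53 half-site, searched by its consensus, was in 9.38% of them, against 7.13% of all. The windows of Ube2c (chr2:164769679-164769928, plus strand) and Cdc20 (chr4:118437344-118437593, minus strand) are shown because both members were lower in both backgrounds and hold both elements, with the elements on either strand in capitals. A match in these letters describes the window and not a site in use.
Ube2c promoter: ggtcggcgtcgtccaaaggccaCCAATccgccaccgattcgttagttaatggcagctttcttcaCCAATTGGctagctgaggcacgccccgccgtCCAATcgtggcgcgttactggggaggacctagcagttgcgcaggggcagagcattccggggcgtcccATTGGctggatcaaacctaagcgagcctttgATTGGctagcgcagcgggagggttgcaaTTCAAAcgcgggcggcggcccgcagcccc
Cdc20 promoter: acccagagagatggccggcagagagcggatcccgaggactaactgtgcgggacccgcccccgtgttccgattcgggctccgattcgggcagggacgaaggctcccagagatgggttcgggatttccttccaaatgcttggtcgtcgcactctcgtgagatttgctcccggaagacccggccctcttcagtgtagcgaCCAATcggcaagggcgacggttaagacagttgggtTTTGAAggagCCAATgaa

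The 12 higher genes had no CHR in their 13 windows of 9 genes with an entry, and the 12 lower genes had 1 with it among 11 windows of 9 genes (9.09%). None of these 24 windows held the p53 half-site. The CCAAT box stood in 30.8% of the windows of higher genes and 45.5% of those of lower genes, against 33.8% of all.

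Mitochondrially encoded genes were the list with the most members apart. Of 13 tested, 7 were apart higher in both backgrounds, against 1.63% of all genes. At an unadjusted p under 0.05, 9 were higher, against 7.89% of all genes, and DESeq2 called 9 higher, against 3.85%. The 7 were mt-Nd6, mt-Nd5, mt-Nd2 and mt-Nd4 of complex I, mt-Co1 and mt-Co2 of complex IV and mt-Atp6 of the ATP synthase. The median log2 change was 0.54, and 0.63 and 0.42 in the 2 backgrounds. mt-Nd6 stood at 116, 165 and 126 CPM in Mdmx-Tg, against 88.7, 65.8 and 75.8 CPM in Wild-type, and at 102, 111 and 164 CPM in the double mutant, against 63.1, 88.1 and 73.6 CPM in Pu.1-URE-/-. All 6 libraries with the transgene were above all 6 others (0.78 ± 0.16, edgeR adjusted p = 0.115). mt-Cytb of complex III had the largest change (0.98 ± 0.24), although Wild-type 2, at 10108 CPM, lay above Mdmx-Tg 3, at 8955 CPM. At the other end were mt-Co3 (0.10 ± 0.11), mt-Nd4l (-0.12 ± 0.18) and mt-Nd3 (-0.21 ± 0.65).

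As a share of all reads, mitochondrially encoded genes took 3.25%, 3.33% and 2.52% in Mdmx-Tg, against 1.46%, 2.39% and 1.61% in Wild-type. They took 2.21%, 2.43% and 3.23% in the double mutant, against 1.47%, 1.84% and 1.66% in Pu.1-URE-/-. Libraries did not overlap in either background, and over both only Wild-type 2 lay above the lowest library with the transgene. The means were 2.83% ± 0.494 with the transgene and 1.74% ± 0.351 without it (SD, n = 6 each), a difference of 1.09 points with an exact p of 0.005, the smallest that the 400 arrangements within backgrounds can give, and an adjusted p of 0.065 over 13 values. With 1 library left out this adjusted p ran from 0.0325, without Pu.1-URE-/- 2, to 0.13. It also depends on the p of the other values adjusted with it, so a lower one is not by itself stronger evidence. The share can also move with RNA quality and with the number of genes detected, whose part was not tested beyond the fit with detected genes as a covariate, where the median of the list was 0.38, and the same median was 0.38 without Mdmx-Tg 2, double mutant 3 and Wild-type 1.

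**Figure D3:**
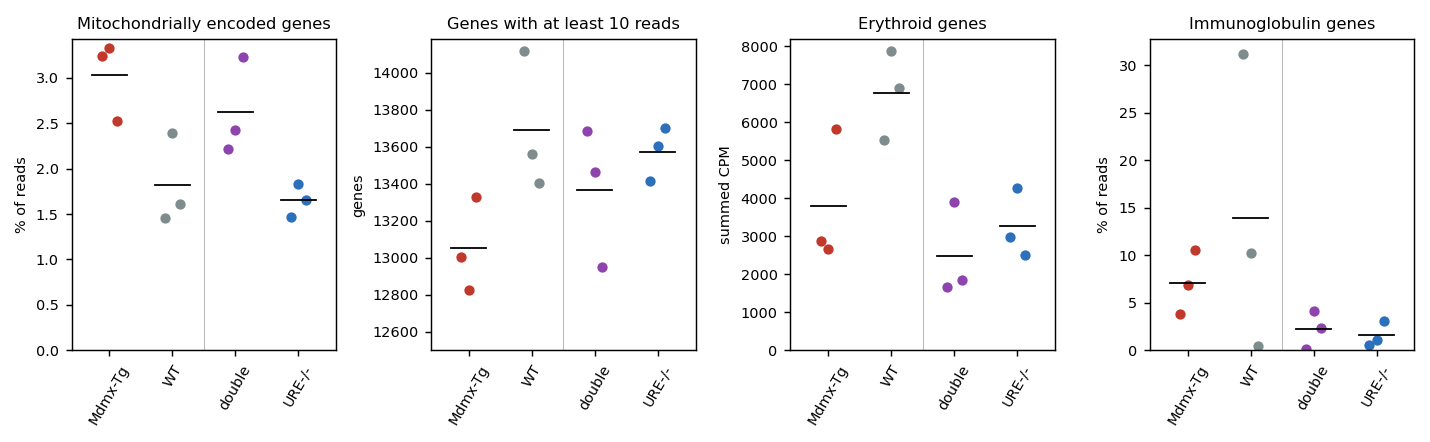
Values per library (points) and genotype means (bars): share of reads from mitochondrially encoded genes, genes with at least 10 reads (axis not starting at 0), summed CPM of erythroid genes and share of reads from immunoglobulin genes, with Mdmx-Tg left of Wild-type (WT) and the double mutant left of Pu.1-URE-/- (URE-/-). The mitochondrial share is the value whose groups are apart in both backgrounds, while the erythroid sums overlap in both and the immunoglobulin share is set by Wild-type 1, at 31.2%.

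The nuclear genes of respiration did not share this. Of 50 oxidative phosphorylation genes, 22 were above 0 and 28 below (median -0.04). At an unadjusted p under 0.05, 2 were higher and 6 lower, against 7.89% and 7.23% of all genes. Among the lower were the ATP synthase subunit Atp5d (-0.71 ± 0.22) and the complex I subunit Ndufv1 (-0.51 ± 0.17). The difference between the 2 lists was not tested. Of 24 glycolysis genes, 16 were below 0 (median -0.25), and hexokinase 1 (Hk1) was apart lower in both backgrounds, at 72.1, 62.4 and 142 CPM in Mdmx-Tg, against 154, 167 and 152 CPM in Wild-type, and 85.2, 93.0 and 41.7 CPM in the double mutant, against 138, 124 and 149 CPM in Pu.1-URE-/- (-0.84 ± 0.23, edgeR adjusted p = 0.129). Mdmx-Tg 3 was again the library closest to Wild-type. Cytosolic ribosomal protein genes (78 tested, median 0.06) and ribosome biogenesis genes (35 tested, median 0.05) stayed near the median of all genes.

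For Wnt signalling, to which MDMX is linked through casein kinase 1 alpha, 37 component genes had a median of 0.12. At an unadjusted p under 0.05, 4 were higher and 0 lower, against 7.89% and 7.23% of all genes. Gsk3b, a kinase of the beta-catenin destruction complex, was apart higher, at 576, 882 and 420.2 CPM in Mdmx-Tg, against 263, 382 and 295 CPM in Wild-type, and 520.4, 493.01 and 796 CPM in the double mutant, against 353, 434 and 329 CPM in Pu.1-URE-/- (0.85 ± 0.20, DESeq2 adjusted p = 0.00379). Ctnnb1, the beta-catenin gene, had a log2 change of 0.56 ± 0.17 and overlapped between the double mutant and Pu.1-URE-/-. Lrp5, a Wnt co-receptor, was apart lower but barely present, at most 2.70 CPM. The 20 Wnt target genes had a median of 0.07 and none was apart in both backgrounds, and the cyclin D1 gene Ccnd1 had the smallest p (1.29 ± 0.33, edgeR adjusted p = 0.127).

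Survival genes were mixed. Of 28 apoptosis regulators, 4 were higher and 4 lower at an unadjusted p under 0.05 (median 0.03), against 7.89% and 7.23% of all genes. The caspase inhibitor gene Xiap was apart higher in both backgrounds (0.75 ± 0.22), and the anti-apoptotic Bcl2 had a log2 change of 0.78 ± 0.19. The pro-apoptotic Bcl2l11, at -1.05 ± 0.34, was lower. Among 47 interferon response genes, 32 had a log2 change above 0 and 15 below (median 0.26). At an unadjusted p under 0.05, 5 were higher and 4 lower, against 7.89% and 7.23% of all genes, with the restriction factor Trim30a apart higher (0.69 ± 0.20) and the peptide transporter Tap1 apart lower (-0.72 ± 0.15).

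Several lists had unlike medians in the 2 backgrounds. The 24 granulocyte-monocyte progenitor genes had medians of 0.00 in Mdmx-Tg over Wild-type and -0.92 in the double mutant over Pu.1-URE-/-. The 15 neutrophil markers had -0.54 and -1.26, and the 29 immediate early and stress genes 0.15 and -0.94. In the opposite order, the 18 monocyte and macrophage markers had -0.37 and 0.68, and the 16 mature B cell and plasma cell markers -0.84 and 0.23. These differences between backgrounds were not tested for lists. A median counts each member equally, and for monocyte and macrophage markers the summed CPM went against it without the element. The sum was 1930, 805 and 842 CPM in the double mutant, against 3335, 1628 and 2828 CPM in Pu.1-URE-/-, with overlap. Neutrophil markers summed to 159 to 30383 CPM with the transgene and 135 to 96740 CPM without it, with the high values in the libraries without the element. Anxa1, an anti-inflammatory annexin on that list, went the other way and was apart higher in both backgrounds (0.92 ± 0.19), as was Rel, an NF-kappaB subunit, at low level (2.01 ± 1.06). Fermt3, the integrin activator kindlin-3 on the megakaryocyte list, was lower in all 6 libraries with the transgene than in all 6 others (-0.70 ± 0.14, edgeR adjusted p = 0.120).

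The remaining lists had additive medians of 0.35 for 15 T cell and NK cell markers, -0.26 for 16 mature B cell and plasma cell markers, -0.04 for 18 monocyte and macrophage markers, 0.05 for 24 megakaryocyte genes, 0.04 for 16 mast cell and basophil genes, -0.28 for 13 dendritic cell and eosinophil markers, -0.10 for 13 endothelial and stromal markers and -0.06 for 22 cholesterol synthesis genes. By edgeR no member of any list was called. DESeq2 called members of several, against 3.85% higher and 3.65% lower among all genes with an adjusted p. Among 49 stem cell genes these were 8 higher and 0 lower, among 35 G2/M genes 0 and 4, and among 35 S phase genes 0 and 3. Among 47 interferon response genes they were 5 and 2, and among 47 p53 targets 0 and 3.

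**Figure D4:**
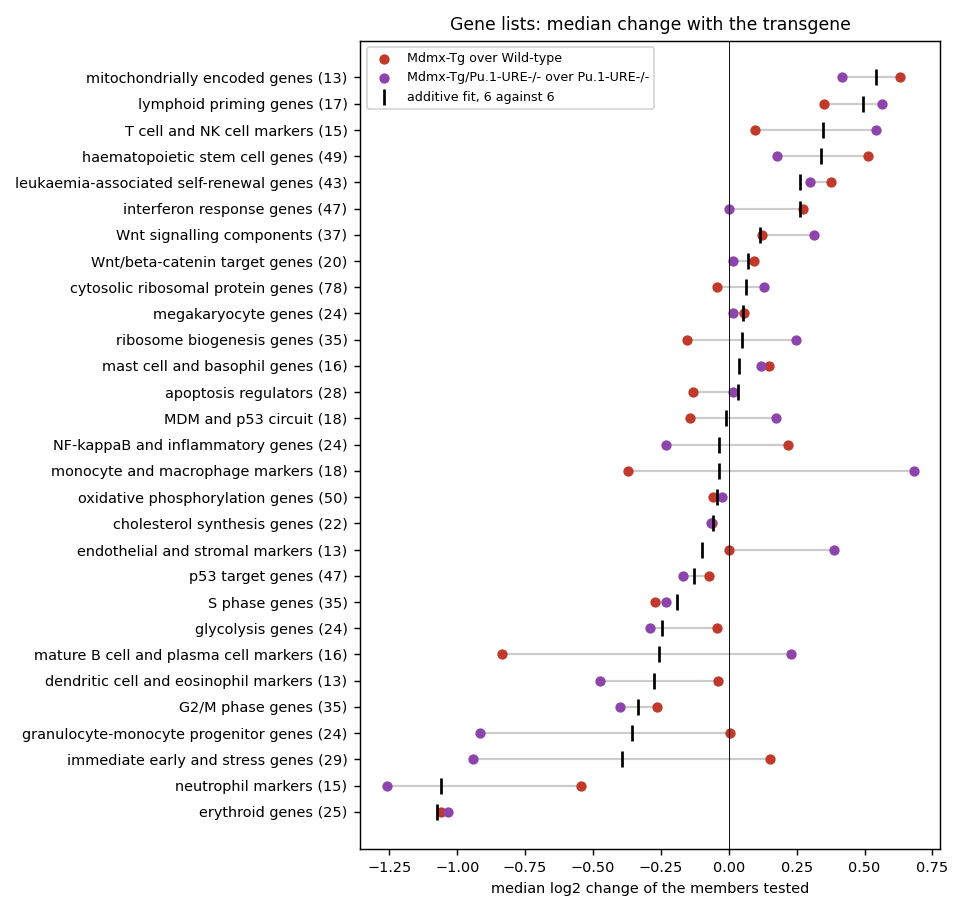
Median log2 change of 29 gene lists (number of members tested in brackets) in Mdmx-Tg over Wild-type (red), in the double mutant over Pu.1-URE-/- (purple) and in the additive fit (black bar). Mitochondrially encoded genes (0.54) stand at the top and erythroid genes (-1.07) at the bottom with their backgrounds close together. Monocyte, mature B cell, neutrophil, progenitor and immediate early lists have backgrounds far apart.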

How the data were processed

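Polyadenylated RNA of 12 libraries, 3 for each of 4 genotypes, was sequenced as paired ends, per the labels' protocols. The authors deposited, per the file headers, estimated counts and TPM per transcript for each library. Per the submitters' processing notes, which give no versions, FastQC, Salmon and DESeq2 were used, with GRCm38 and mm10 as builds. The deposited TPM values were not used in any test. Estimated counts were summed per gene through GENCODE transcript annotation (115995 of 116248 transcripts matched; the 253 others held 0.0379% to 0.0841% of reads) and rounded to whole numbers.

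Genes were tested with edgeR 4.0.16 (quasi-likelihood test, TMM factors, filterByExpr with a minimum count of 10 and total of 15, Benjamini-Hochberg threshold 0.05) in R 4.3.3, with element and transgene as additive terms, and with 4 genotype means for the changes within backgrounds and their interaction. SE is the log2 change over the square root of F. DESeq2 1.42.0 and limma-voom (limma 3.58.1) were alternatives. CPM uses TMM-scaled library sizes. The edgeR step was tested on simulated data: of genes changed by 1, 2 and 3 log2 units it called 7 of 67, 48 of 67 and 54 of 66, among 15012 genes. The changed genes were drawn only from those with a mean log2 CPM above 2, so recovery at lower levels was not tested. Single values were compared with an exact permutation test within element states. P-values measure the spread between separately numbered mice.

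The members and lists were chosen with earlier results of these data known. Named genes were Mdm4, Mdm2, Trp53, Spi1, Cdkn1a and Csnk1a1, up to 12 protein-coding genes per direction with the smallest p among those apart the same way in both backgrounds (mean log2 CPM of at least 0, without predicted, Y-linked and immunoglobulin genes), and 3 members per list with the smallest p. Further list members in the text were chosen outside this rule, after their values were seen. Replicate numbers did not pair the samples: the deviations of 18 same-numbered pairs correlated at -0.153 to 0.0856. Results for a few genes are not reported here.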

Additional observations from a re-analysis of the deposited data

Results flagged for a closer look

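In 5 of 84 groups of 6 libraries 1 library stood apart from the others, and chance gives about 1 in 20. Wild-type 1 had 31.163% of its reads in immunoglobulin genes and 221671 summed CPM over the markers of mature B cells and plasma cells, the highest of the 6 libraries without the transgene. Wild-type 2 had 214.454 summed CPM of Y-linked genes, the highest of the same 6. Mdm2 was lowest in Mdmx-Tg 3, at 33.2675 CPM, among the 6 libraries with the transgene. Igsf9b was highest in Wild-type 3, at 5.88879 CPM, among the 6 without it.

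Chek2 was lower in every Mdmx-Tg library than in every Wild-type library (log2 change -0.5524) and higher in every double mutant than in every Pu.1-URE-/- library (0.36), and the edgeR test of the difference gave an adjusted p of 0.767.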

How the results depend on the processing

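The count of genes called, 0 in the additive edgeR fit, was 815 with DESeq2, 1 with limma-voom, 2 with the mouse number series as a factor and 0 to 211 with 1 library left out, where 211 came without Mdmx-Tg 3 and 1 without double mutant 2. Of these, 811, 1, 2 and 0 to 211 had the same sign in both backgrounds. A call in the additive fit already favours equal signs, so these counts are a description and no test of agreement. The mouse number series were ranges of the mouse numbers on the labels, grouped for that fit and not known to be batches. Genotypes were spread unevenly over them. The series with Mdmx-Tg 2 held no Wild-type and no double mutant library, and the series with Mdmx-Tg 3 held no Pu.1-URE-/- library. Mdmx-Tg against Wild-type gave 330 calls with DESeq2 and 0 to 109 with 1 library left out; the double mutant against Pu.1-URE-/- gave 329, 0 to 4, and 1 without Mdmx-Tg 2, double mutant 3 and Wild-type 1 together. The interaction gave 194 calls with DESeq2 and 1 with the immunoglobulin share as a covariate. Genes apart in both backgrounds numbered 251 to 528 higher, 264 to 545 lower and 99 to 181 in opposite ways with 1 library left out, and 391, 533 and 471 without those 3, since fewer libraries separate more easily. The mitochondrial difference ran between 0.940 and 1.24 points with 1 library left out. Its adjusted p from the exact permutation test ran from 0.0325, without Pu.1-URE-/- 2 (1.14 points), to 0.13. The Csnk1a1 change, -0.0791 to 0.0336 with 1 library left out, reversed to 0.0336 without Wild-type 2, 0.0216 without Mdmx-Tg 2, 0.0171 without double mutant 2 and 0.00766 with detected genes as a covariate. With a replicate block 0 genes were called. The causes of the other changes were not tested. None of 696 alternative values of the 24 named genes reversed. These genes were chosen in the same libraries for a small p and no overlap, so this carries no weight as a result. Of 841 list medians, 5 moved beyond the spread. Leaving out 3 libraries together and the covariates for detected genes and immunoglobulin share were chosen after seeing the data. Of genes simulated with a change of 1 log2 unit, all with a mean log2 CPM above 2, 7 of 67 were called. Smaller changes were not simulated, nor were changes in genes at lower levels.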
